A study of Homo sapiens with 3 samples.

Results

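miR-21 is made from 1 hairpin, MIR21, whose stem yields a mature miRNA from each side: miR-21-5p (hsa-miR-21-5p) from the 5′ arm and miR-21-3p (hsa-miR-21-3p) from the 3′ arm. Both were followed here in small-RNA libraries of the human melanoma cell line SK-MEL-2. The members were taken by name, 2 of the 2588 mature miRNAs listed, and both were listed in each library. Control cells had no treatment, and the treated cells stood under a plasma jet, which blows weakly ionised, nonthermal gas onto the culture, for 3 or 5 min. All groups were grown in serum-containing medium and, as labelled, sampled on day 2. Each group was a single library, 3 in all, so no value below has a replicate, no test was possible and no p-value is given. Each ratio compares libraries, and the intervals are 95% intervals for counting error only.

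A miRNA hairpin is cut first by Drosha and then by Dicer into a short duplex, and 1 strand, the guide or major arm, is usually kept by an Argonaute protein while the other, the passenger or minor arm, is degraded. The guide finds target mRNAs mainly through its seed, bases 2 to 8 from the 5′ end. miR-21-5p is among the most abundant miRNAs in many tumours, melanoma included, and represses the tumour suppressor PDCD4; its gene is induced through STAT3, AP-1 and NF-kB. miR-21-3p is the passenger arm and has its own seed and targets.

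The mature sequence of miR-21-5p is shown beside the other human miRNA with the same seed, since a shared seed is what defines a targeting family. Sequences are from RefSeq (GRCh38.p14), and capitals mark the seed.
miR-21-5p: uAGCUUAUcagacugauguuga
miR-590-5p: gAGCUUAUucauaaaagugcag
miR-21-5p lies at chr17:59841273-59841294 on the plus strand and miR-590-5p at chr7:74191213-74191234 on the plus strand. Of the 2370 mature names in the RefSeq table, these 2 alone carried that seed. miR-590-5p was listed at 0 counts in each of the 3 libraries, which allows up to 2.87, 3.10 and 4.87 counts per 1000000 library counts (CPM) in control, 3 min and 5 min. The search covered the 2281 listed names that the table holds; the other 307, miR-21-3p among them, were not searched.

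The MIR21 hairpin covers 72 bases of chromosome 17 (59841266 to 59841337, plus strand, GRCh38). In GENCODE release 29 it lies in the gene VMP1, which encodes an autophagy protein, 174 bases past the end of the last protein-coding VMP1 transcript and inside an exon of 1 retained-intron transcript (59837931 to 59842255). The sequence of miR-21-5p occurred in 1 of the 1562 hairpins of the RefSeq table. The closest other mature miRNAs were 7 single-base edits away, and the longest run of bases shared with any was 9. Reads of miR-21-5p therefore had no near-identical copy in that table to be divided with.

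The libraries held 1045482 counts (control), 966943 (3 min) and 615645 (5 min), so a single count was worth 0.956, 1.03 and 1.62 CPM. Ratios between libraries were scaled by TMM, a method that sets the typical miRNA level equal between libraries, and were computed for the 231 miRNAs whose counts averaged 20 or more. Both arms met that minimum, miR-21-3p narrowly with a mean of 26.3 counts. As a check of the labelled cell type, the melanocytic markers miR-204-5p (2608, 2535 and 1257 counts in control, 3 min and 5 min) and miR-211-5p (128, 97 and 65) were present, while the other 4 of 6 melanocytic markers, miR-506-3p, miR-508-3p, miR-509-3p and miR-514a-3p, were at 0. miR-21-5p is also high in leukocytes and fibroblasts. The 4 leukocyte markers summed to 10, 9 and 9 counts (9.56, 9.31 and 14.6 CPM), with miR-223-3p at 0. The 5 fibroblast markers summed to 4303, 4955 and 3560 counts. Scaled to depth that was 4116, 5124 and 5783 CPM, so the sum rose with exposure. Most of it was miR-199a-3p. In counts, miR-199a-5p was at 118, 115 and 109 and miR-143-3p at 85, 108 and 59. miR-214-3p was at 1, 1 and 0 and miR-145-5p at 1, 2 and 0. Epithelial markers summed to 16, 28 and 44 counts, erythrocyte or serum markers to 7, 12 and 5, and endothelial markers to 327, 327 and 233. The part of other cells in the miR-21 values was not tested.

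miR-21-5p was the most abundant miRNA of every library, and its share hardly differed between them. Its counts were 353933 (control), 329576 (3 min) and 209107 (5 min). These were 33.85% (exact interval 33.76 to 33.94), 34.08% (33.99 to 34.18) and 33.97% (33.85 to 34.08) of the library. The 3 min share was the highest and the control the lowest, and the 5 min interval overlapped both others. For every 100 counts of all other miRNAs together there were 51.2, 51.7 and 51.4 counts of miR-21-5p. The next miRNA in rank was let-7i-5p, a member of the let-7 family of growth-restraining miRNAs, in all 3 libraries. miR-21-5p exceeded it 3.17-fold, 3.38-fold and 3.58-fold in control, 3 min and 5 min.

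miR-21-3p was scarce in every library. Its counts were 30 (control), 31 (3 min) and 18 (5 min). Scaled to depth these were 28.7 CPM (exact interval 19.4 to 41.0), 32.1 CPM (21.8 to 45.5) and 29.2 CPM (17.3 to 46.2). The 3 intervals overlapped almost entirely. Its rank was 211, 202 and 224 in the same order, among 639, 663 and 708 miRNAs with a count. Its neighbours in rank differed from it by 1 count. They were miR-331-3p (31 counts) and miR-3907 (29) in the control, miR-1297 (32) and miR-29b-1-5p (30) after 3 min, and miR-331-3p (19) and miR-326 (17) after 5 min. The order of miR-21-3p among these is therefore not resolved by the counts.

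**Figure D1:**
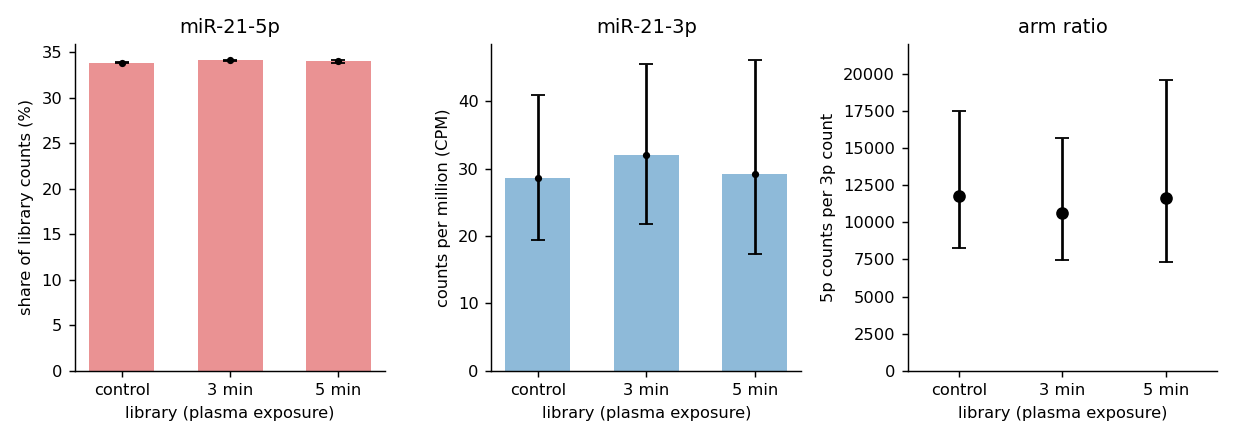
Levels of both miR-21 arms in the control, 3 min and 5 min libraries (1 library each). Left, miR-21-5p as a percentage of library counts; middle, miR-21-3p in CPM; right, 5p counts per 3p count; bars and points are the measured values and error bars exact 95% counting intervals. The 5p share stays between 33.85% and 34.08%, and the 3p and ratio intervals of the 3 libraries overlap.

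The 5′ arm outnumbered the 3′ arm by about 4 orders of magnitude. Per count of 3p there were 11798 counts of 5p in the control library (8264 to 17486). The 3 min library had 10632 (7490 to 15647) and the 5 min library 11617 (7350 to 19602). As a share of both arms, miR-21-3p made up 0.00848% (0.00572 to 0.0121), 0.00941% (0.00639 to 0.0133) and 0.00861% (0.00510 to 0.0136). Over the 3 libraries summed, it had 79 of 892695 hairpin counts, or 0.00885% (0.00701 to 0.0110). Library kits ligate adapters to some RNA ends better than others, so this is a ratio of reads and not of molecules. How reads were aligned, matched to an annotation and assigned when they fit several places or either strand is not given in the sources used here, and the part of these steps in the low 3p count was not tested.

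Other hairpins put that imbalance in scale. Arms were paired by name, so a stem such as let-7a with several genomic copies counts as 1 hairpin. Among the 48 hairpins with a mean of at least 1000 counts over both arms, the minor arm's median share was 1.47%, and for 39 of them the whole interval lay above that of miR-21. miR-21 had the 8th lowest minor-arm share. The 7 below it were miR-25, miR-744, miR-3529, miR-328 and miR-146b, whose minor arms were at 0, and let-7g and miR-99a, with 2 and 3 minor-arm counts in all. None of these 7 was separated from miR-21: the share of let-7g was 0.00281% (0.000340 to 0.0101) and that of miR-99a 0.00381% (0.000786 to 0.0111), both overlapping the interval of miR-21. The upper limit of miR-3529, at 0 of 35036 counts, was 0.0105%, also inside the interval of miR-21, and those of the other 4 lay above it. miR-3529 is antisense to miR-7. In control, 3 min and 5 min miR-3529-3p had 14868, 12149 and 8019 counts and miR-7-5p 14408, 10701 and 5489. Whether reads of either were counted for the other was not tested. let-7i, the next above it, stood apart at 0.0250% (0.0194 to 0.0318).

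**Figure D2:**
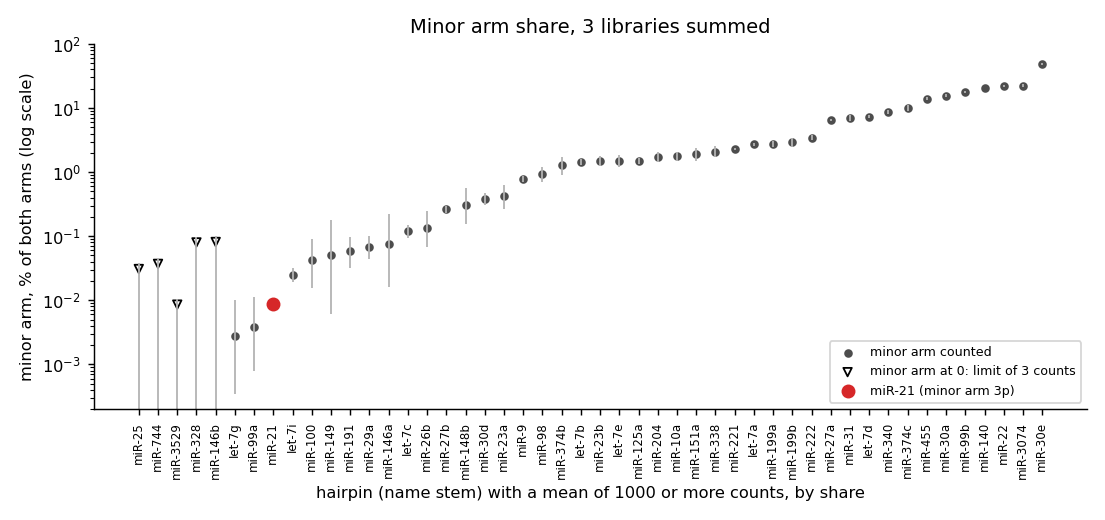
Minor arm as a percentage of both arms (log scale) for the 48 hairpins with a mean of at least 1000 counts, 3 libraries summed, in order of share. Points are measured shares, open triangles the limit of 3 counts where the minor arm was at 0, and lines exact 95% counting intervals (cut at the lower edge); miR-21 (red) is the 8th lowest at 0.00885%.

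The 5′ base is one feature by which a strand is known to be chosen, since Argonaute proteins bind a 5′ U or A more readily. miR-21-5p starts with U. The arms of let-7i, the hairpin next to miR-21 in abundance and in imbalance, are shown for comparison, with the first base in capitals.
let-7i-5p: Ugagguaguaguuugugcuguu
let-7i-3p: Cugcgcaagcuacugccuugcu
They lie at chr12:62603691-62603712 and chr12:62603747-62603768 on the plus strand. Over the 48 abundant hairpins, U was the first base of 25 of the 46 major arms in the RefSeq table (54.3%) and of 4 of the 42 minor arms (9.52%). A was the first base of 14 major and 11 minor arms, and C of 6 major and 20 minor arms. Among these hairpins miR-21-5p thus carried the commonest first base of a major arm. Hairpins of the same family, such as those of let-7, were counted singly. Whether the first base set the arm balance was not tested. miR-21-3p had no entry in the table.

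The shorter exposure was compared with the untreated cells first. miR-21-5p stood at 1.02-fold of control (1.01 to 1.02), a log2 ratio of 0.023. miR-21-3p stood at 1.13-fold (0.660 to 1.93), with 31 counts against 30. Neither of the 2 arms reached 2-fold, which 3.03% of the 231 measured miRNAs did in either direction. The interval of miR-21-5p left out 1, yet its size was below what the choice of scaling moved. Over 7 scalings its log2 ratio ran from -0.050 to 0.023, above 0 in 4 and below 0 in 3.

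After 5 min of plasma the 2 arms again stood near control. miR-21-5p was at 0.995-fold (0.990 to 1.001) and miR-21-3p at 1.01-fold (0.531 to 1.87), from 18 counts in the shallower 5 min library and 30 in the control. Neither reached 2-fold, against 13% of the 231 measured miRNAs. Of the 58 abundant miRNAs, those averaging 1000 counts or more, none lay closer to control than miR-21-5p in the TMM scaling; their median distance from 0 was 0.27 on the log2 scale. That rank belongs to this scaling. Under the others the log2 ratio of miR-21-5p ran from -0.22 (DESeq2 size factors over all listed miRNAs) to 0.0072, below 0 in 5 of 7 scalings. Its distance from the median of the 58 abundant miRNAs, which scaling does not alter, was 0.10 after 5 min and -0.00071 after 3 min. After 5 min 23 of the other 57 lay above it and 34 below. From the median of all 231 measured miRNAs its distance was -0.053 after 5 min and -0.027 after 3 min. At each exposure 129 of the 231 lay above it and 101 below. Its side of the median after 5 min thus depended on the set.

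The 5 min library was also set against the 3 min library. miR-21-5p was at 0.980-fold (0.974 to 0.985), a log2 ratio of -0.030. That ratio was below 0 in all 7 scalings and ran from -0.17 to -0.0050. Its interval held 0 when scaled by the library total (-0.013 to 0.0029) or by the total without miR-21-5p (-0.016 to 0.00027). The distance of miR-21-5p from the median, which scaling does not alter, was 0.086 for the 58 abundant miRNAs and -0.045 for all 231. miR-21-3p was at 0.897-fold (0.472 to 1.65). Neither of the 2 reached 2-fold, which 7.36% of the 231 did. In the TMM scaling both arms were highest at 3 min, but for miR-21-5p that order held in 4 of 7 scalings and in the other 3 its value was lower at each step. For miR-21-3p it held in all 7. Of the 58 abundant miRNAs, 19 had that order (up from control to 3 min, down from 3 to 5 min), 14 had higher values at each step, 18 lower values at each step and 7 a lower and then a higher value. All these are orders of values from single libraries.

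**Figure D3:**
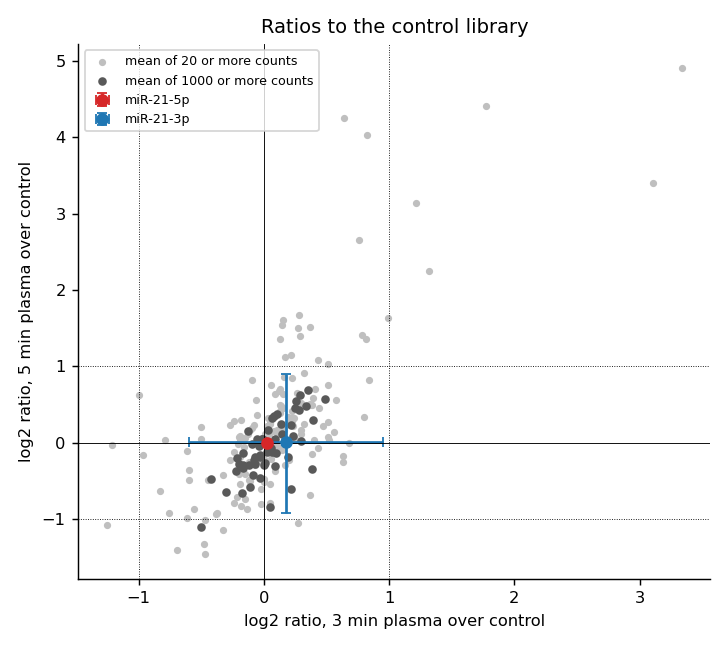
log2 ratio to control after 3 min (x axis) against that after 5 min (y axis), TMM-scaled, for the 231 measured miRNAs (light) and the 58 abundant ones (dark). Bars are 95% counting intervals of the miR-21 arms and dotted lines mark 2-fold; both arms lie inside the dotted square, miR-21-5p near the origin and miR-21-3p with intervals that reach almost to 2-fold.

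For miR-21-3p, depth limits what could be seen. Its intervals allow a level as low as 0.531-fold and as high as 1.87-fold of control after 5 min, and 0.660-fold to 1.93-fold after 3 min. Smaller changes than these were not detectable with 18 to 31 counts. For miR-21-5p the counting intervals were narrow, and the spread between cultures was not measured.

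**Figure D4:**
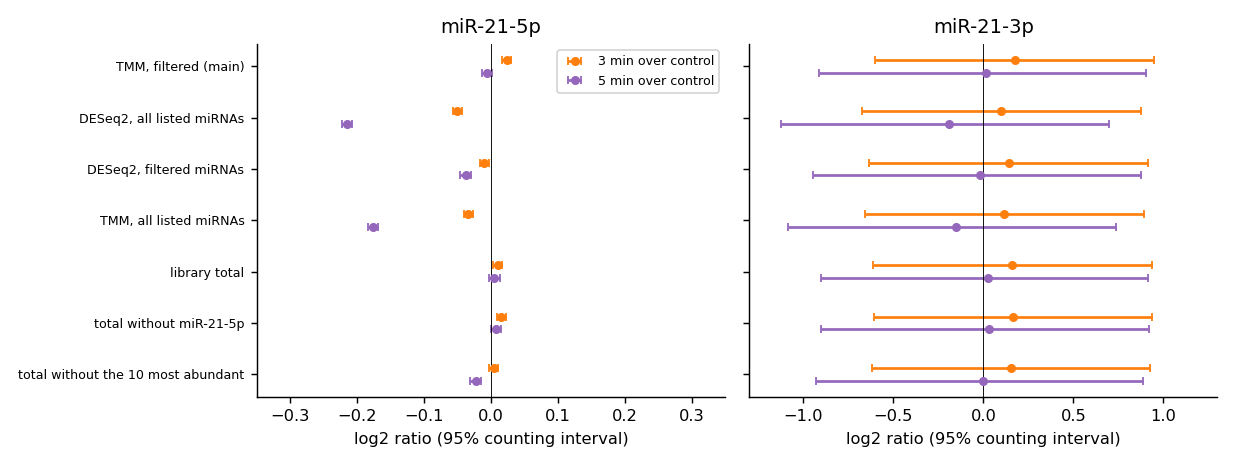
log2 ratio to control of miR-21-5p (left) and miR-21-3p (right) under the TMM scaling used throughout and 6 alternatives, after 3 min (orange) and 5 min (purple), with 95% counting intervals; the x axes differ in range. For miR-21-5p the scalings spread wider than the intervals, down to -0.22 after 5 min; for miR-21-3p every interval spans 0.

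Against single abundant miRNAs, where no scaling enters, miR-21-5p gained on some and lost to others. Of the other 9 of the 10 most abundant miRNAs, it gained on 5 and lost to 4 from control to 5 min. Its count relative to miR-99a-5p, a repressor of MTOR, was 10.3, 11.7 and 12.9 in control, 3 min and 5 min, a 1.26-fold gain (1.23 to 1.28). Relative to let-7i-5p the gain to 5 min was 1.13-fold (1.12 to 1.14). The largest loss was to miR-221-3p, a repressor of CDKN1B, an inhibitor of cell division: 15.3 counts of miR-21-5p per count of miR-221-3p in the control became 11.1 and 10.3, a 1.49-fold loss. Its share was thus level while its standing to single miRNAs moved in both directions.

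The ratio of the 2 arms does not depend on scaling either, because both come from the same library. The 5p to 3p ratio after 3 min was 0.901-fold that of control (0.545 to 1.49). After 5 min it was 0.985-fold (0.549 to 1.77), and 5 min stood at 1.09-fold of 3 min (0.611 to 1.95). All 3 intervals held 1. The miR-21 ratio moved less than 1.5-fold in each comparison. Of the 49 hairpins with at least 20 mean counts for each arm, 8.16% moved at least 1.5-fold after 3 min, 32.7% after 5 min and 18.4% between the exposures, in either direction.

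In other hairpins the arm balance of the 5 min library differed from control by more than counting error: the interval lay above 0 for 12 and below 0 for 9 of the 49. The 16 that moved at least 1.5-fold were split evenly, 8 towards the major and 8 towards the minor arm, and the median of the 49 was a log2 change of 0.014 beside -0.022 for miR-21. miR-23b moved farthest towards its major arm: its 3p to 5p ratio was 48.8, 66.9 and 139 in control, 3 min and 5 min, a 2.85-fold change (1.60 to 5.10) on 65, 43 and 14 minor-arm counts. miR-27b, encoded beside miR-23b, moved the same way, with ratios of 290.2, 387 and 619 and a 2.13-fold change (1.49 to 3.06), and miR-221 by 1.73-fold (1.52 to 1.98). Towards the minor arm, miR-3065 moved 2.73-fold, miR-335 2.11-fold and miR-30e 1.57-fold. Major and minor go by the summed counts. After 5 min the minor arm was the larger in miR-3065 (59 against 58 counts) and miR-30e (478 against 375). Some of the 49 are antisense to each other, such as miR-3065 and miR-338, or miR-3184 and miR-423. Whether reads were shared within such pairs was not tested. Among the 5 of these 49 hairpins with most counts beside miR-21, miR-140 moved 1.54-fold towards its 3p arm (1.46 to 1.63), let-7c had a change of 0.553-fold (0.308 to 0.993) and let-7i 1.23-fold (0.661 to 2.31). The interval of miR-21 took in the values of 43 of the 49 hairpins, miR-21 among them, so a shift of the size seen in miR-221 or miR-140 could not be told from none in miR-21.

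**Figure D5:**
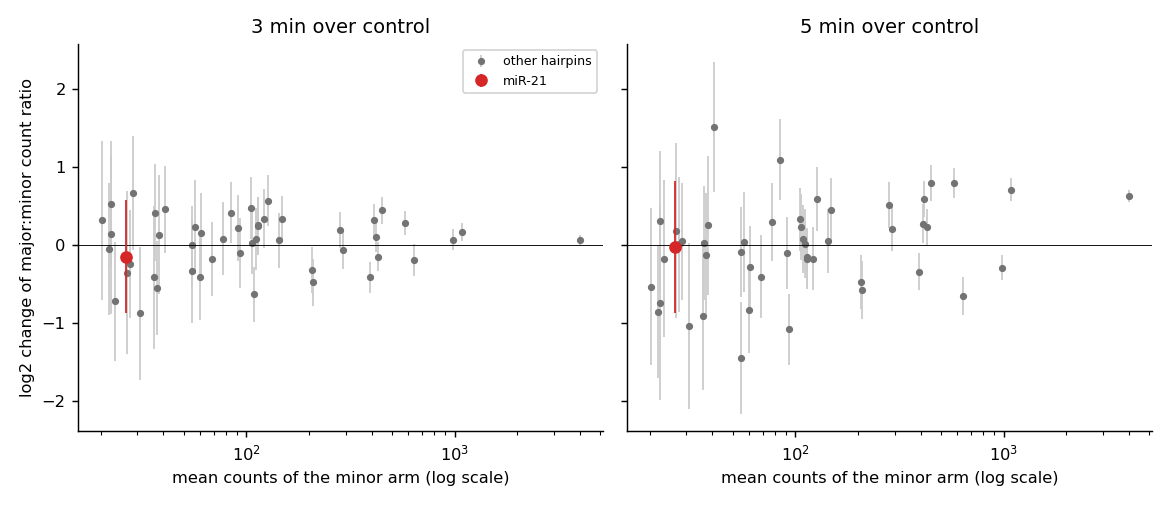
log2 change of the major to minor arm count ratio against control after 3 min (left) and 5 min (right) for 49 hairpins, by the mean counts of the minor arm (log scale), with 95% counting intervals. miR-21 (red) lies at -0.15 and -0.022 with intervals that span 0; several hairpins with better counted minor arms lie off 0 after 5 min.

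The miRNAs with the pattern most like each arm were sought among the other 57 abundant ones, by the distance between their pairs of log2 ratios to control. The 5 nearest to miR-21-5p were miR-191-5p at 0.052, miR-27a-3p at 0.065, miR-30d-5p at 0.066, miR-23b-3p at 0.068 and miR-148b-3p at 0.069. miR-191-5p had 9389, 8617 and 5734 counts, with log2 ratios of 0.0022 (3 min) and 0.041 (5 min). For miR-21-3p the 5 nearest were let-7d-5p, let-7g-5p, miR-30c-5p, miR-22-3p and miR-30d-5p, at 0.092 to 0.14. The uncertainty of miR-21-3p itself is several times those distances. With 3 libraries, likeness of this kind describes 2 numbers per miRNA.

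miRNA genes near MIR21 were read as well. Within 1 Mb GENCODE places 4 other miRNA genes. MIR301A, on the opposite strand 690045 bases away, gave miR-301a-5p with 249, 164 and 59 counts. Its log2 ratio was -0.48 at 3 min (-0.77 to -0.19) and -1.32 at 5 min (-1.76 to -0.91). miR-301a-3p had 13, 4 and 1 counts. Both arms of MIR454 and miR-4737 were at 0 in each library, and MIR4729 had no entry in the RefSeq table. The arms of miR-21 thus stood near control while miR-301a-5p was lower.

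Other miRNAs tied to the same regulators were taken from lists of known biology. miRNAs linked to NF-kB, AP-1 or STAT3, the regulators of MIR21, were all measured (7 of 7). None was at least 1.5-fold from control after 3 min or 5 min, against 12.1% and 29% of the 231. Their median log2 ratio was 0.21 after 3 min and 0.23 after 5 min, beside 0.050 and 0.046 over all 231. The 5 min median was as low as 0.023 under another scaling, DESeq2 size factors over all listed miRNAs. There the median of all 231 was -0.16, since a scaling shifts both medians by the same amount. miR-146a-5p, a feedback repressor of NF-kB signalling, had 1319, 1442 and 1139 counts and a log2 ratio of 0.54 (0.43 to 0.66) after 5 min. miR-155-5p, an inflammatory and oncogenic miRNA, had 838, 789 and 540 counts and 0.12 (-0.040 to 0.28). miR-221-3p stood at 0.57 (0.54 to 0.60) and its cluster partner miR-222-3p at -0.34 (-0.42 to -0.27).

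SMAD proteins are reported to speed Drosha cutting of the MIR21 hairpin through a short stem motif. Its letters, CAGAC, start at base 9 of miR-21-5p, which is base 16 of the 72 bases of the hairpin. The reverse complement GUCUG is also in the hairpin and starts at base 65. Whether CAGAC and this GUCUG pair in the stem was not tested. CAGAC was held by 1.81% of mature miRNAs in the RefSeq table, and 2.69% of hairpins held both. Of the 5 mature miRNAs listed from other SMAD-bound hairpins, 4 were measured. miR-215-5p had 8, 17 and 42 counts and passed the minimum of 20 only through the 5 min library, where it stood at 8.85-fold of control (4.10 to 21.8), so it is given as a value and in no count. miR-199a-5p was at 1.56-fold after 5 min (1.19 to 2.04), though not 1.5-fold in all 7 scalings. Both, like miR-199a-3p, have an identical or near-identical paralog, so their reads can be shared. miR-199a-3p had 4098, 4729 and 3392 counts and stood at 1.39-fold of control after 5 min (1.33 to 1.46). miR-421 had 59, 53 and 35 counts and a log2 ratio of -0.00064 (-0.65 to 0.63) after 5 min.

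Among oncogenic miRNAs 11 of 16 were measured, with median log2 ratios of 0.19 after 3 min and 0.12 after 5 min, beside 0.050 and 0.046 over all 231. Over the 7 scalings the 5 min median ran from -0.090 to 0.13, so its direction turned. A scaling shifts the median of all 231 by the same amount. With DESeq2 size factors over all listed miRNAs, where the list stood at -0.090, that median was -0.16. None was 1.5-fold from control after 3 min, against 12.1% of the 231, and 3 of 11 were higher after 5 min, against 17.3%. These were miR-19b-3p at 1.69-fold (1.18 to 2.41), miR-20a-5p at 1.504-fold (1.34 to 1.69) and miR-30b-5p at 1.61-fold (1.39 to 1.86). miR-19b-3p and miR-20a-5p are of the miR-17 to miR-92 cluster, whose other members in the list did not move alike after 5 min. Of these, miR-17-5p was at 1.25-fold (1.08 to 1.44) and miR-92a-3p at 0.875-fold (0.819 to 0.935). miR-18a-5p was at 0.963-fold and miR-19a-3p at 0.753-fold, each with an interval that held 1. With DESeq2 size factors over all listed miRNAs the count of higher members of the oncogenic list after 5 min was 0, and 1 member was then 1.5-fold lower. The share of all 231 at 1.5-fold was not computed under that scaling, so these counts stand without a background. This list and that of NF-kB, AP-1 or STAT3 share miR-155-5p, miR-221-3p and miR-222-3p and are not independent of each other. miR-21-5p outnumbered the summed counts of the 16 oncogenic miRNAs, which were 41751, 49085 and 30891.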

How the data were processed

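The authors deposited whole-number read counts per mature miRNA, 1 file per library, for 2588 names. Per the labels' protocols, Trizol RNA went into a NEBNext small-RNA kit. The tools named per the submitters' processing notes are edgeR, bedtools and Bowtie2, without role or version. Genome build, annotation, trimming, multimapping and strand handling: not given in the sources used here.

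From the deposited counts, TMM factors (edgeR 4.0.16, R 4.3.3) were computed over 231 miRNAs whose mean reached 20 counts. Alternatives used 6 scalings, DESeq2 1.42.0 among them. Ratios have exact Clopper-Pearson 95% intervals; changes of arm ratios have Woolf intervals from 4 counts, both counting error only. PCR copies without molecular identifiers are not independent molecules. Both kinds of interval were tested on simulated data with counting error only and known library totals. That did not test the TMM scaling, PCR copies or the spread between cultures. Python 3.11.15, scipy 1.17.1 and matplotlib 3.10.9 were used. Of the listed names, 2281 of 2588 matched RefSeq; miR-21-3p did not.

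The members, the 3 lists and the rules were chosen with earlier results of these data known. Named miRNAs were both arms, miRNAs sharing a seed, neighbours in rank, the 5 nearest in pattern for each arm, the 5 hairpins with most counts among the 49 with at least 20 mean counts for each arm, the 3 per direction whose arm ratio moved most after 5 min by counting bound, and list members; 1 further list is not reported here. The 10 most abundant miRNAs, the miRNA genes near MIR21 and the first-base count were added after the values were seen.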

Additional observations from a re-analysis of the deposited data

How the results depend on the processing

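With 1 library per group no replicate could be left out, and no paired analysis was possible because each group has a single sample and the labels give no replicate numbers. Neither arm of miR-21 reached 1.5-fold in any comparison under any of the 7 scalings, and miR-21-3p stayed within its counting interval in all of them. For miR-21-5p the log2 ratio after 3 min (0.023) became -0.050 with DESeq2 size factors over all listed miRNAs, -0.010 with those over the filtered ones, -0.034 with TMM over all listed, 0.0098 with the library total, 0.015 with the total without miR-21-5p and 0.0038 with the total without the 10 most abundant. After 5 min (-0.0065) the same settings gave -0.22, -0.038, -0.18, 0.0048, 0.0072 and -0.023. For 5 min against 3 min (-0.030), DESeq2 over all listed gave -0.17, TMM over all listed -0.14, the library total -0.0050 and the total without miR-21-5p -0.0076. The 2-fold counts of 7, 30 and 17 miRNAs (3 min, 5 min, 5 min against 3 min) became 2, 10 and 5 with a minimum mean of 100 counts, where 131 miRNAs are compared. DESeq2 over all listed gave 18 higher and 17 lower after 5 min against 22 and 8, and shifted the median of all 231 from 0.046 to -0.16.

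The counts of hairpins whose arm ratio moved 1.5-fold, 4, 16 and 9 of 49 in the same order, became 1, 7 and 1 of 24 with at least 100 mean counts for each arm, which leaves out miR-21. With arms given to 1 hairpin each by RefSeq, 38 hairpins were compared, and the counts were 1, 14 and 7 in the same order. Of those 14 after 5 min, 6 moved towards the major arm and 8 towards the minor arm. Of the 7 after 5 min with the higher minimum, 6 moved towards the major arm. Adding 0.5 to every count changed no arm ratio of miR-21 beyond its interval. Among hairpins with a mean of at least 1000 counts and a count of each arm in each library, a set chosen after seeing the data, 14 of 39 moved 1.5-fold after 5 min, 12 towards the major arm. Depth limits miR-21-3p, at 18 to 31 counts.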
